A study of Homo sapiens with 6 samples.

Results

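The genes described here are 8 chemokine genes, CXCL1, CXCL2, CXCL5, CXCL6, IL8 (now named CXCL8), CXCL12, CXCL14 and CCL2, taken by their symbols from the 31410 gene rows of an Illumina HT-12 expression array table. All 8 were in the table. Their RNA was measured in 6 samples of human embryonic stem cells carried to stage 6, the last stage of a pancreatic differentiation protocol, at which part of the cells make insulin. H1 cells, an established line, supplied differentiations 1 and 2, and HUES8 cells, another established line, supplied differentiation 3. Every differentiation was divided into live cells, lysed fresh for a column extraction, and processed cells, which underwent paraformaldehyde fixation, permeabilization, antibody staining, a sort that kept all cells, and extraction with a kit intended for fixed tissue. There were thus 3 live and 3 processed samples, 4 from H1 and 2 from HUES8, with 1 array each, and HUES8 is represented by a single differentiation. The labels name no treatment besides the differentiation protocol, which all cultures shared. The members were chosen with their levels on these arrays already known, and so the differences between cultures given below are a description and carry no test.

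Chemokines are small secreted proteins that steer the movement of cells through G protein-coupled receptors. CXCL1, CXCL2, CXCL5, CXCL6 and IL8 belong to the neutrophil-attracting group that acts on CXCR2, and epithelial and stromal cells make them in response to inflammatory cytokines and injury, largely through the transcription factor NF-κB. CXCL12 is a homeostatic chemokine of mesenchymal cells that signals through CXCR4 and is scavenged by the atypical receptor CXCR7 (now ACKR3), CXCL14 is made constitutively by many epithelia, and CCL2 attracts monocytes through CCR2.

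The stretches of DNA just before the start of the genes are shown first because the neutrophil-attracting members share a string in them. RefSeq promoter sequences of GRCh38.p14 matched 7 of the 8 genes, IL8 through its current symbol, and CCL2 is named only. The 120 bases before each start follow, 5′ to 3′ on the strand of the gene, with the letters GGAATTTCC, a form of the κB site bound by NF-κB, in capitals. CXCL14 is printed as a member without these letters.
CXCL1, chr4:73869273-73869392, + strand: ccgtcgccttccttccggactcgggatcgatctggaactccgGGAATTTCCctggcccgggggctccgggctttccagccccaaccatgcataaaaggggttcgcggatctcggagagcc
CXCL2, chr4:74099196-74099315, - strand: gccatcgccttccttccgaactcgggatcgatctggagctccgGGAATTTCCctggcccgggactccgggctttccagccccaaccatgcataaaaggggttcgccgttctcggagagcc
CXCL6, chr4:73836558-73836677, + strand: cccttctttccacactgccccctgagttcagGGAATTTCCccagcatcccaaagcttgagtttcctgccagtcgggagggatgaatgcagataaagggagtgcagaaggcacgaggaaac
CXCL5, chr4:73998678-73998797, - strand: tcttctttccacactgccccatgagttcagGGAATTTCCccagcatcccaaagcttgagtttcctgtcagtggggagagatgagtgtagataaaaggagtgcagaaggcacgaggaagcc
IL8 (CXCL8), chr4:73740449-73740568, + strand: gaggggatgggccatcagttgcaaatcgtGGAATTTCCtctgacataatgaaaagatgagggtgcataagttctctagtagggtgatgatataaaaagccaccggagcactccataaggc
CXCL14, chr5:135578992-135579111, - strand: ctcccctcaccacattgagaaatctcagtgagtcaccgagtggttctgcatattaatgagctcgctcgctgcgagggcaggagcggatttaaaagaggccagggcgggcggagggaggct

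The letters GGAATTTCC, searched on both strands of the 250 bases before the start, occurred in 5 of the 7 member promoters, those of CXCL1, CXCL2, CXCL5, CXCL6 and IL8. They occurred in 0.413% of all 35116 promoters of this length. The match began 77 and 78 bases before the start in CXCL2 and CXCL1, and 89, 90 and 91 bases before it in CXCL6, CXCL5 and IL8. Over the 250 bases, CXCL5 and CXCL6 were identical at 85.6% of positions and CXCL1 and CXCL2 at 78.8%. After the same alignment CXCL1 was identical to CXCL5 at 59.6%, to CXCL12 at 58.4% and to IL8 at 50%. CXCL12 and CXCL14 held no match in this window. The letters TGANTCA, a form of the AP-1 site, were found in IL8, starting 137 bases before the gene, and in CXCL14, starting 92 bases before it, and in 6.57% of all promoters. Of the 40 other chemokine ligand genes, 26 had a promoter in the table, and CXCL3, CXCL10 and CXCL11 held the κB letters. These letters were picked after the sequences had been read, and a match is a string in the DNA, not an occupied site. The 5 genes with the κB letters lie in a single run of 9 protein-coding genes on chromosome 4 in RefSeq, in the order CXCL8, CXCL6, PF4V1, CXCL1, PF4, PPBP, CXCL5, CXCL3 and CXCL2.

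**Figure D1:**
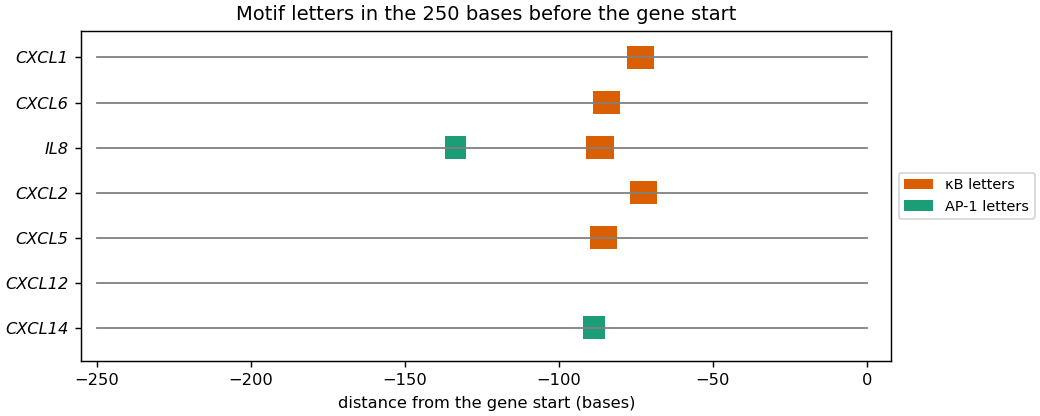
Positions of the κB letters (orange) and the AP-1 letters (green) in the 250 bases before the start of 7 chemokine genes, with distance from the start in bases on the horizontal axis. The 5 neutrophil-attracting genes hold the κB letters between 69 and 91 bases before the start, and CXCL12 and CXCL14 hold none.

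Median intensity over all genes was 22.5 to 27.4 on the 6 arrays, and between 12297 and 12698 genes stood at 40 or more. The cultures carried endocrine transcripts, with INS between 1898 and 5069, SST between 2602 and 7339 and CHGA between 7128 and 16612 on every array. A gene was entered into the statistical fits when it reached 40 on at least 3 of the 6 arrays, which 12653 genes did. Of the 8 chemokine genes, CXCL1, CXCL6, IL8, CXCL12, CXCL14 and CCL2 met this minimum and CXCL2 and CXCL5 did not. CXCL1 and IL8 met it on the 4 H1 arrays alone, so they entered because they were high in H1. Array intensities depend on the probe, and levels are therefore compared only within a gene.

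CXCL1 and CXCL6 were bright in both H1 cultures and IL8 mainly in differentiation 1, and all were close to background in the HUES8 culture. CXCL1, also known as GROα, had intensities of 139 (live) and 167 (processed) in differentiation 1, 235 and 152 in differentiation 2, and 30.3 and 25.1 in HUES8. Both HUES8 arrays lay below all 4 H1 arrays, while the H1 differentiations overlapped each other. As both HUES8 arrays were under 40, only a bound is given: with them set to 40, H1 was at least 3.17-fold higher on the log2(intensity + 20) scale, which is used throughout for differences. In these mixed cultures, fewer cells that make a transcript and less of it in each cell cannot be told apart.

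CXCL6, the close relative of CXCL5 that also binds CXCR1, had 111 and 112 in differentiation 1, 139 and 123 in differentiation 2, and 40.6 and 30.8 in HUES8. HUES8 again lay below every H1 array, with log2 differences of -1.25 and -1.44 from differentiations 1 and 2 (2.54-fold on average, with 1 of the 2 HUES8 arrays at 40 or more). The H1 cultures were 0.19 apart, with both arrays of differentiation 2 on the higher side.

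IL8, the archetypal neutrophil attractant, separated all 3 cultures. Its intensities were 150 and 130 in differentiation 1, 58.4 and 46.6 in differentiation 2, and 16.7 and 10.7 in HUES8. No array of a culture overlapped that of another, and differentiation 2 differed from differentiation 1 by -1.14 on the log2 scale (-1.11 in live and -1.18 in processed samples). CXCL1 and CXCL6 did not share the drop between the H1 cultures. With the HUES8 arrays, which were under 40, set to 40, IL8 was at least 1.79-fold higher on the mean of the H1 cultures than in HUES8. Differentiation 2 alone, at 58.4 and 46.6, lay little above 40, so no fold against HUES8 is sized for it.

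CXCL2 and CXCL5, the remaining neutrophil attractants, stayed under 40 on all 6 arrays. CXCL2 had 18.2 and 20.8 in differentiation 1, 20.9 and 10.3 in differentiation 2, and 17.1 and 7.84 in HUES8. CXCL5 had 13.9 and 28.1, 34.8 and 32.2, and 24.1 and 19.998 in the same order. No fold is given for them, since both lines lay under the minimum. CXCL3, a paralog of CXCL1 and CXCL2 that resembles both in coding sequence, also stayed low (11.7 to 23.8), so the CXCL1 signal had no counterpart in the rows of its closest relatives. The probe sequences were not used here, and hybridization between relatives was not tested.

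**Figure D2:**
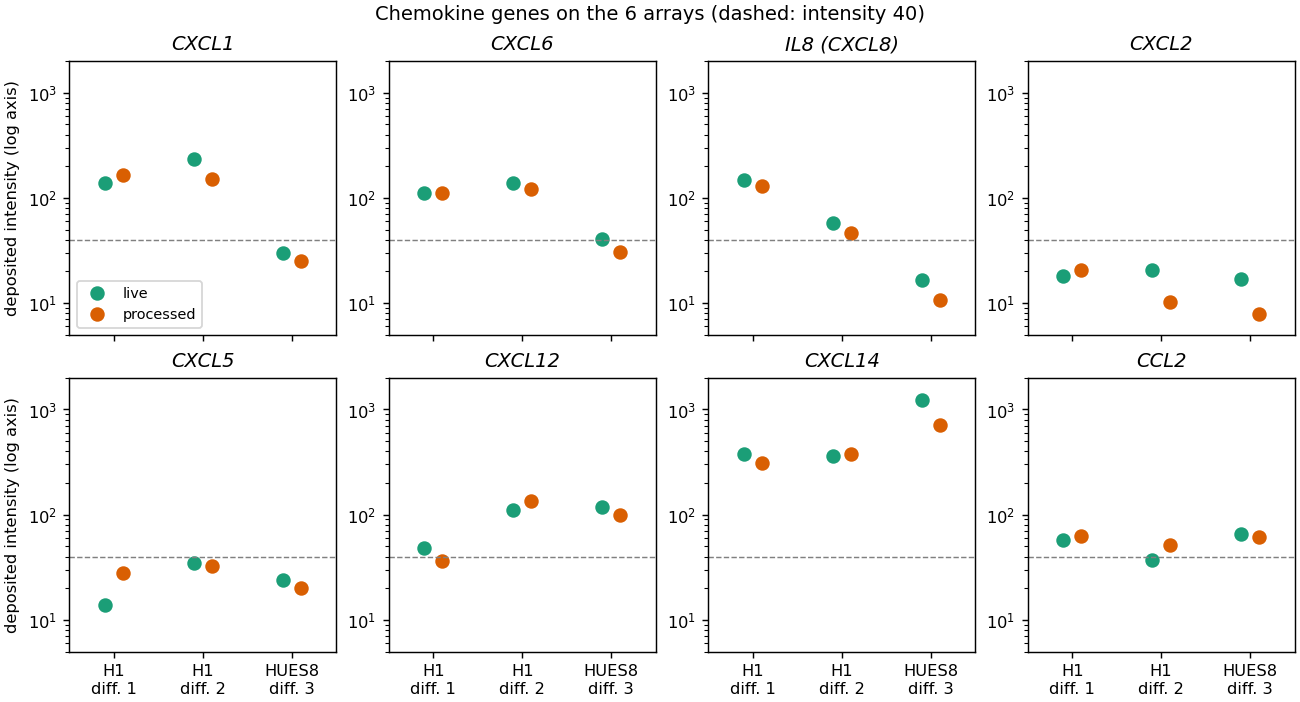
Deposited intensity (log axis) of each chemokine gene in the live (green) and processed (orange) sample of every differentiation, 1 point per array, with the minimum of 40 dashed. CXCL1, CXCL6 and IL8 fall from H1 to HUES8, CXCL14 rises, CXCL12 is lowest in H1 differentiation 1, and CXCL2 and CXCL5 lie under 40 throughout.

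CXCL12 followed a different order. Its intensities were 48.0 and 36.3 in differentiation 1, 111 and 134 in differentiation 2, and 118 and 98.4 in HUES8. Differentiation 1 lay below the other cultures on both arrays, whereas differentiation 2 and HUES8 overlapped. The log2 difference between the H1 cultures was 1.20 (0.95 in live and 1.45 in processed samples), and HUES8 differed by 1.05 from differentiation 1 and by -0.15 from differentiation 2. The mean difference between the lines, 0.45, thus rested on differentiation 1.

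CXCL14 was the member with the highest levels in HUES8 relative to H1. It stood at 375 and 307 in differentiation 1, 365 and 380 in differentiation 2, and 1220 and 710 in HUES8. Both HUES8 arrays exceeded all H1 arrays, and the HUES8 mean differed by 1.41 and 1.28 on the log2 scale from differentiations 1 and 2 (2.54-fold on average). The H1 cultures overlapped. The difference between lines was 1.67 among live samples and 1.02 among processed samples, as the processed HUES8 sample was the lower of its pair.

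CCL2 varied least among the members that reached the minimum. Intensities were 57.2 and 62.6 in differentiation 1, 37.4 and 51.2 in differentiation 2, and 65.3 and 61.9 in HUES8. Differentiation 1 and HUES8 overlapped, and both arrays of differentiation 2 were the lowest, a log2 difference of -0.32 from differentiation 1. HUES8 differed from the mean of H1 by 0.23.

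Across all genes tested, 18.5% had both HUES8 arrays below every H1 array and 18.8% had both above, and 3.55% were at least 2-fold lower and 2.05% at least 2-fold higher in HUES8. Among the 8 members, 3 (CXCL1, CXCL6 and IL8) were of the first kind and 1 (CXCL14) of the second. CXCL1, CXCL6 and CXCL14 differed at least 2-fold, while for IL8 the dim HUES8 arrays allow only the bound of 1.79-fold on the mean of the H1 cultures. The limma fit called 1.73% of all genes between the lines, and no call is given for the members, whose levels chose them. Between the H1 cultures, 2.25% of genes were at least 2-fold lower and 1.57% at least 2-fold higher in differentiation 2, where the members gave 1 of each, IL8 and CXCL12. Differentiation 2 lay above differentiation 1 on both arrays for 26.9% of all genes and for 3 members (CXCL12, CXCL6 and the dim CXCL5), and below it for 32.5% and for 2 members (IL8 and CCL2). These counts describe genes chosen for their levels, and nothing is read from them.

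Markers of other cells differed between the cultures as well. The summed intensity of 7 liver and gut markers was 12818 to 18275 on the H1 arrays and 2830 to 3485 on the HUES8 arrays, with both HUES8 arrays the lowest for 6 of the 7. AFP, the fetal liver α-fetoprotein gene, had 6123 to 7813 in H1 and 22.9 and 33.6 in HUES8, and APOA1 2327 to 5905 and 254 and 303. That of 7 duct and epithelial markers was 8317 to 10304 in H1 and 5424 to 6065 in HUES8, and that of 10 mesenchymal markers 2308 to 3766 and 1155 to 1287. The mesenchymal sum was highest in differentiation 2 (3766 and 3640) and was 2308 and 2323 in differentiation 1. COL3A1, a collagen gene of that list, was higher in the same H1 culture as CXCL12, with 235 and 242 in differentiation 1 and 1368 and 1272 in differentiation 2, but had 133 and 127 in HUES8, where CXCL12 was high. TAGLN, a smooth muscle gene of that list, had 795 to 1013 in H1 and 266 and 379 in HUES8. The brightest duct and epithelial genes, KRT19 and CDH1, ranged from 2436 to 3903 and from 1333 to 3107 over all arrays. No gene of these 3 lists was at 0 on any array. Of the 8 endocrine markers, both HUES8 arrays lay above all H1 arrays for 4 and below them for 2, against 18.8% and 18.5% of all genes. Their summed intensity was 19009 to 27054 in H1 and 22655.5 and 24762 in HUES8. The part of these shifts in the chemokine levels was not tested. Defining leukocyte genes were dim everywhere, with PTPRC, which encodes CD45, at most 6.96, CD3E at most 10.8 and CD14 at most 18.2. Among 7 leukocyte markers only CD68 and LYZ, which other cells also express, met the minimum. Of 6 endothelial markers, PECAM1 reached 31.2 and CDH5 15.0, while VWF and TEK met the minimum. TEK was 29.4 to 95.7 over all arrays, and VWF was 62.0 to 89.0 on the H1 arrays and 18.6 and 15.2 in HUES8.

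Whether the fixation, staining and sorting shifted chemokine transcripts was asked with limma, with the differentiation as a block. Among the 12653 genes 0% were called at an adjusted p under 0.05, and 9.65% (1221 genes) had an unadjusted p under 0.05, none of them a chemokine member. With the methods' t-test, 320 genes had an unadjusted p under 0.05 and 0 remained after adjustment. IL8 was on the lower side in the processed sample of all 3 pairs, with log2 differences of -0.17, -0.24 and -0.25 (mean -0.22 ± 0.04, SD, n = 3 pairs, 95% interval -0.51 to 0.07, limma adjusted p = 0.588). Its HUES8 pair, like that of CXCL1, compares arrays that were both under 40. A negative difference in all 3 pairs was found for 19.8% of all genes. A positive one was found for 13.7% of all genes and for 0 of the members tested, and no other tested member was negative in all 3. Differences of at least 2-fold within a pair were found for 0.213%, 0.798% and 2.37% of all genes in pairs 1 to 3 and for 0 of the 8 members. The summed intensity of the 7 leukocyte markers was 367 to 521 in live and 443 to 832 in processed samples, most of it CD68, and its part in these values was not tested.

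CXCL14 had the most negative mean, -0.33 ± 0.41 (95% interval -0.71 to 0.06, limma adjusted p = 0.555), its pairs giving -0.27 and 0.05 in H1 and -0.76 in HUES8. Within the HUES8 culture, 4.28% of all genes differed by more. CXCL1 gave 0.23, -0.57 and -0.16 in pairs 1 to 3, a mean of -0.17 ± 0.40 (interval -0.55 to 0.22, limma adjusted p = 0.756). Without pair 2 its mean was 0.038. The means of CXCL6 (-0.13 ± 0.14), CXCL12 (-0.088 ± 0.28) and CCL2 (0.12 ± 0.19) had intervals from -0.43 to 0.17, from -0.42 to 0.25 and from -0.19 to 0.43, with limma adjusted p-values of 0.756, 0.856 and 0.788. CXCL12 was 0.0035 without pair 1. These intervals hold for each gene alone and are not adjusted for the number of genes.

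The effect of processing was also compared between the lines, on the differences within pairs. The fit called 0.261% of all genes (0.237% higher and 0.0237% lower in HUES8) and 0 of the 6 members tested. The largest difference among the members was that of CXCL14, where the effect in HUES8 minus the mean effect in H1 was -0.65 (interval -1.39 to 0.08, limma adjusted p = 1.00). The 6 members tested include CXCL1 and IL8, but both HUES8 arrays of each were under 40, so nothing is read from their values. The interval rests on a spread pooled fully over genes, with the same standard error of 0.376 for every member tested. It does not measure the spread of the gene's own 2 H1 pairs.

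**Figure D3:**
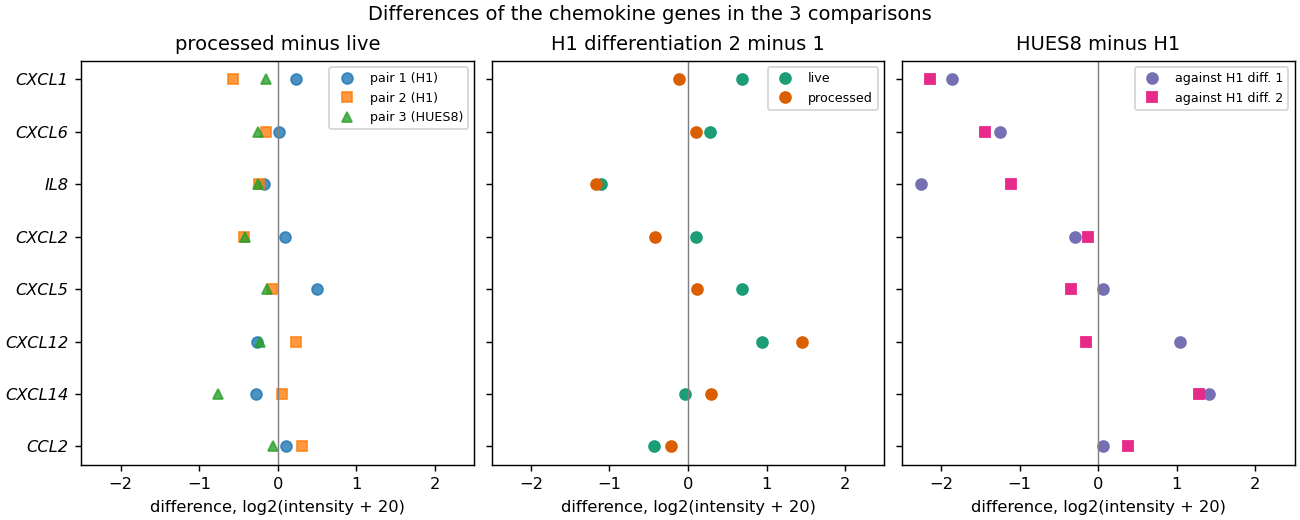
Differences of the 8 chemokine genes on the log2(intensity + 20) scale: processed minus live in each pair (left), H1 differentiation 2 minus 1 in live and in processed samples (middle) and HUES8 minus each H1 culture (right). Processing differences lie between -0.76 and 0.50, IL8 and CXCL12 stand apart between the H1 cultures, and CXCL1, CXCL6, IL8 and CXCL14 are more than 1 from 0 against both H1 cultures, where the HUES8 arrays of CXCL1 and IL8 were under 40 and their positions are only nominal.

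The remaining chemokine ligands were mostly undetected. Of 40 other ligand genes in the table, 33 lay under 40 on all arrays and only CCL5 and CX3CL1 met the minimum. CX3CL1, the membrane-bound ligand fractalkine, ranged from 87.5 to 155 and differed between HUES8 and H1 by 0.20 (limma adjusted p = 0.947). CXCL16, a transmembrane chemokine, passed 40 in differentiation 1 alone (58.9 and 62.5, against 31.4 and 37.6 in differentiation 2 and 22.5 and 19.1 in HUES8). Differentiation 1 was thus highest, as for IL8, and the order of the other cultures, all under 40, is not read. CXCL13, a B cell attractant, passed 40 in differentiation 2 alone (45.5 and 62.8). CXCL16 and CXCL13 were picked out after their values had been seen.

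Receptors of the neutrophil attractants were not among the detected genes. Of 22 receptor genes in the table, 19 lay under 40 on all arrays, including CXCR1 (14.8 to 32.3) and the CCL2 receptor CCR2 (12.2 to 16.6), and CXCR2 had no row. The receptors of CXCL12 were detected. CXCR7 ranged from 476 to 553 on the H1 arrays and was 843 and 961 in HUES8, and CXCR4 had 99.4 and 63.6 in differentiation 1, 83.3 and 160 in differentiation 2 and 348 and 191 in HUES8. Both HUES8 arrays were above all H1 arrays for each of these receptors, as for 18.8% of all genes tested. Neither was called between the lines, with log2 differences of 0.80 for CXCR7 (limma, interval 0.07 to 1.53, adjusted p = 0.402) and 1.26 for CXCR4 (interval 0.50 to 2.02, adjusted p = 0.0988). CXCR4 had processed minus live differences of opposite sign, -0.51, 0.80 and -0.80 in pairs 1 to 3, and was called only without pair 2 (mean -0.66, limma adjusted p = 0.0169, against 0.841 with all pairs).

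Genes of the NF-κB pathway, which drives the neutrophil-attracting chemokines in inflamed tissue, were detected in part. Of 30 listed genes, 7 lay under 40 on all arrays, among them the subunit genes NFKB2 (22.6 to 34.6) and REL (18.5 to 38.6) and the adhesion gene ICAM1 (at most 22.4). The minimum was met by 21, and between HUES8 and H1 limma called 0 higher and 1 lower, against 0.49% and 1.24% of all genes. The called gene was SDC4, which encodes syndecan-4, a heparan sulfate proteoglycan that binds chemokines. SDC4 had 402, 440, 296 and 505 on the H1 arrays of differentiations 1 and 2 and 74.9 and 108 in HUES8, a difference of -1.94 (3.84-fold, limma adjusted p = 0.00627), a call lost with no filter on dim genes (adjusted p = 0.613). The list had a median difference of -0.11, against 0.02 over all genes tested, and both HUES8 arrays lay below all H1 arrays for 6 of its 21 tested genes and above them for 1, against 18.5% and 18.8% of all genes. The list was chosen with earlier results of these data known, so nothing is read from these counts. NFKBIZ, an inducible nuclear IκB protein, had 158, 204, 117 and 111 in H1 and 40.02 and 47.5 in HUES8, and its difference of -1.36 missed the threshold (limma adjusted p = 0.0782). NFKBIA, the IκBα inhibitor and itself an NF-κB target, differed by -0.86 (limma adjusted p = 0.335), from 747 to 1028 in H1 to 555 and 387 in HUES8.

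The inflammatory cytokines IL6, IL1B and TNF were dim, whereas IL18 was listed at 8344 to 14512. Of 29 cytokine and receptor genes, 21 lay under 40 on all arrays, with IL6 at 13.6 to 22.2, IL1B at most 11.1 and TNF at most 9.29, and 4 were tested, with 0 called between the lines against 1.73% of all genes. LTBR, the lymphotoxin β receptor, which feeds into NF-κB, was highest in differentiation 1, as was IL8, with 121 and 125 in differentiation 1, 59.6 and 39.5 in differentiation 2 and 10.4 and 15.9 in HUES8. The processed sample of differentiation 2 and both HUES8 arrays were under 40, so the order of these cultures is not read. With HUES8 set to 40, LTBR was at least 1.65-fold higher on the mean of the H1 cultures. LTBR met the minimum on 3 arrays, all of H1, so it entered the fit because it was high there, and no p is given for it.

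Carriers and peptidases that act on chemokines gave 2 called genes among 8 tested, both lower in HUES8, against 1.24% of all genes called lower. The first was SDC4, the same call as in the NF-κB list. The other was GPC3, which encodes glypican-3, with 1281 to 1859 in H1 and 573 and 608 in HUES8 (-1.47, limma adjusted p = 0.0431), a call that 6 alternatives ended. All these lists were chosen with earlier results of these data known, so nothing is read from their counts of calls. DPP4, the peptidase that inactivates CXCL12, differed by -0.52 (limma adjusted p = 0.717). GPC3 is also a fetal liver gene. Like the liver and gut markers given above it was lower in HUES8, and whether these differences are related was not tested.

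**Figure D4:**
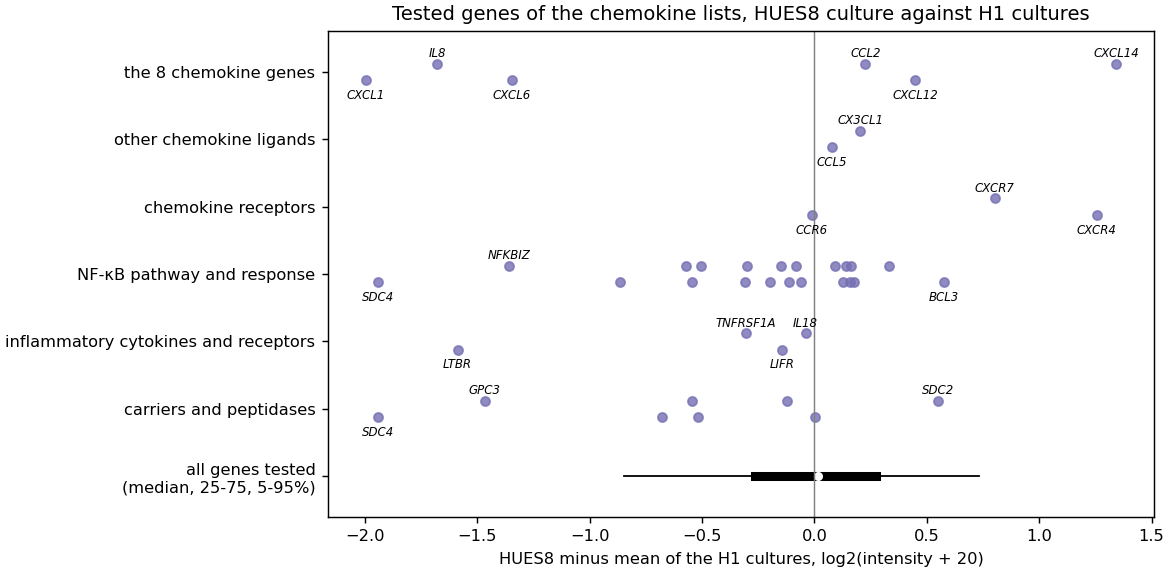
Difference between the HUES8 culture and the mean of the H1 cultures, on the log2(intensity + 20) scale, for every tested gene of the chemokine lists, 1 point per gene, with SDC4 in both lists that hold it. The bottom row gives the median and the central 50% and 90% of all 12653 genes, and CXCL1, CXCL6, IL8 and CXCL14 lie outside the central 90%, CXCL1, IL8 and LTBR with HUES8 arrays under 40.

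No gene of these lists passed the adjusted threshold between processed and live samples. At an unadjusted p under 0.05 there were 4 of the 21 NF-κB genes, among them TNFAIP3, against 9.65% of all genes. TNFAIP3, an inhibitor of NF-κB signaling, had processed minus live differences of 0.32, 0.83 and 0.66 in pairs 1 to 3. It met the minimum on the 3 processed arrays alone (51.4 to 65.4, against 22.2 to 37.4 in live samples), so it was tested because it was high there. Its p is not read, and nothing is read from the count of 4 that includes it. BIRC3, an apoptosis inhibitor and NF-κB target, had 0.40, 0.23 and 1.62 (limma adjusted p = 0.439), and SDC4 had 0.12, 0.73 and 0.44 (adjusted p = 0.465). NFKBIA had -0.07, -0.45 and -0.50 (adjusted p = 0.510). IL8 was on the lower side in the same processed samples (mean -0.22, limma adjusted p = 0.588), as were 19.8% of all genes. Its HUES8 pair was under 40 on both arrays, and nothing is read from the contrast. BIRC3 was called without pair 2 (mean 1.01, limma adjusted p = 0.0132).

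The genes whose pattern over the 6 samples lay closest to each member were found by the root mean square difference of log2 values, each gene centred on its own mean. The 6 samples come from 3 cultures, so the points share their cultures in pairs, and the distances are a description. CXCL1 was closest to L1TD1, a gene of pluripotent cells (0.070), followed by HKDC1, a hexokinase family gene, and DNAJC15. L1TD1 had 196, 229, 312 and 225 in H1 and 50.3 and 48.2 in HUES8. CXCL6 was closest to SMAD6, an inhibitory SMAD gene (0.072), then CRISPLD2 and GRHL2, an epithelial transcription factor gene. For IL8 these were C20orf56 (0.065), PDLIM1 and C8orf47, and C20orf56 went from 1083 and 1074 through 509 and 469 to 223 and 195. For CXCL12 they were PLAU, the urokinase gene (0.099), GAS1 and KIAA1324L, for CXCL14 C1orf19 (0.12), PPP1R14C and RCOR2, and for CCL2 ADAT1 (0.021), JAGN1 and ABCC6P2. Among the members, CXCL1 and CXCL6 were the nearest pair (0.34), and IL8 was 0.57 from CXCL6, its nearest member. The median gene lay 1.00 from CXCL1, 0.95 from IL8 and 0.32 from CCL2, whose pattern was the flattest.

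ACTB and GAPDH, the reference genes, differed between HUES8 and H1 by -0.091 and 0.040 (limma adjusted p = 0.981 and 0.994). The sign of GAPDH turned after quantile normalization (-0.18), in processed samples (-0.082) and without H1 differentiation 2 (-0.26), and that of ACTB in live samples (0.051) and without H1 differentiation 1 (0.0098). GAPDH in H1 differentiation 2 differed by -0.61 from differentiation 1.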

How the data were processed

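RNA from 3 live and 3 processed stage 6 samples was hybridized to 1 Illumina Human HT-12 array each. The deposited intensity values came from GenomeStudio, in which the authors subtracted background and then applied a rank-invariant normalization. Some values lie below 0 (4.37%), so the offset of 20 that they used for fold changes is not in the table. A further table with 12 columns of per-sample values (6 signals and 6 detection p-values) was not used, as nothing in its headers ties a column to a label.

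Values below 0 were set to 0, 20 was added and log2 was taken, which understates changes of dim genes. The minimum of 40 stands in for a detection call, and a fold with HUES8 arrays under 40 is also given with them set to 40. For processed against live, limma 3.58.1 (R 4.3.3) was fitted with the differentiation as a block, and p-values were adjusted by Benjamini-Hochberg over all genes tested. For HUES8 against H1, limma was fitted to the 3 means of live and processed samples and to the 3 differences, with 1 residual degree of freedom, so HUES8 is assumed to vary like the H1 cultures. The labels give both samples of a pair the same differentiation, and deviations from group means correlated at 0.79, 0.62 and 0.81 within pairs. Across pairs the correlations were below 0, which centring on the group means largely forces. Pair 3 is the only HUES8 pair, so line and differentiation cannot be told apart in its value. The fits were also run on simulated data with the same culture spread in both lines and planted line differences larger than most given here. That run could not check the assumption about HUES8. Promoters were searched in Python 3.11.15 and aligned with Biopython 1.88.

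The members and the gene lists were chosen with earlier results of these data known. All 8 members are named. Of the other lists (ligands, receptors, NF-κB, cytokines, carriers) the rule named called genes, up to 5 per list, CXCR2, CXCR4, CXCR7, CCR2, DPP4, NFKBIA, IL6, ACTB and GAPDH, the 3 genes closest to each member and the 2 brightest markers of each cell type list. Further genes were named after their values had been seen. The alternatives tried were other offsets, filters and normalizations, samples left out, live or processed samples alone, no block and the methods' t-test. The number of arrays limits the precision.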

Additional observations from a re-analysis of the deposited data

How the results depend on the processing

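Every alternative kept the direction of CXCL1, CXCL6, IL8 and CXCL14 between the lines. Their sizes moved with the offset: CXCL6 was -0.999 with 50 and -1.64 with 5, and the IL8 difference between the H1 cultures -0.89 and -1.34. The processed against live comparison called 0 genes under all settings that kept 3 pairs, and 105, 688 and 12 without pair 1, 2 or 3, fits with fewer samples. Without the replicate block it also called 0 genes, with 192 at an unadjusted p under 0.05, and the block changed no call of a member. HUES8 against H1 called 219 genes, and 142 with an offset of 50, 80 with a minimum of 40 on all 6 arrays, 111 in live samples only, 128 in processed samples only and 0 with no filter (1570 at an unadjusted p under 0.05). The processing effect in HUES8 against H1 called 33, and 9 with an offset of 50, 12 after median scaling of the arrays and 0 with no filter (697 unadjusted). Genes at least 2-fold apart between the H1 cultures numbered 484, and 277 with an offset of 50. The cause of these shifts was not tested. SDC4 lost its call with no filter (adjusted p = 0.613). GPC3 lost its call with an offset of 5, no filter, a minimum on all arrays, quantile normalization and in live or processed samples only (adjusted p from 0.0811 to 0.743).

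Signs turned for the following differences of members, CXCR4, CX3CL1 and the reference genes. Between processed and live samples these came with a pair left out, over which CXCL1 ranged from -0.36 to 0.038, CXCL12 from -0.25 to 0.0035, CXCR4 from -0.66 to 0.14 and ACTB from -0.0030 to 0.15. Between the lines they were ACTB in live samples (0.051) and GAPDH in processed samples (-0.082) and after quantile normalization (-0.18), CXCL12 (-0.15), CX3CL1 (-0.064) and ACTB (0.0098) without H1 differentiation 1, and GAPDH (-0.26) without H1 differentiation 2. In the processing effect, CXCL1 turned with an offset of 5 (-0.045), after median scaling (-0.0040) and without the second H1 pair (-0.39). IL8 turned with an offset of 50 (0.022), and CXCL12 without the second H1 pair (0.049). The values of CXCL1 and IL8 rest on HUES8 arrays under the minimum of 40, so nothing is read from their signs. Leaving out an H1 culture leaves no replicate, so the line comparisons then gave values and no count of calls. Signals of CXCL2 and CXCL5, and of CXCL1 and IL8 in HUES8, were too close to background for their changes to be sized.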

Other observations

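Among the genes of the lists, CCR6, a chemokine receptor known from lymphocytes, was listed at 4151 to 6791 on the 6 arrays, while the leukocyte genes PTPRC and CD3E stayed under 11. It differed by -0.01 between HUES8 and H1. The probes behind CCR6 and IL18 could not be checked here, so what these intensities measure is uncertain. IL18, a cytokine of epithelial cells, was listed at 8344 to 14512, with processed minus live differences of 0.30, -0.32 and 0.72 in pairs 1 to 3. LTB, which encodes a ligand of LTBR, was 56.3 and 43.2 in differentiation 1, 29.0 and 16.6 in differentiation 2 and 4.89 and 1.63 in HUES8, and did not meet the minimum on 3 arrays. Differentiation 1 was highest, as for IL8, CXCL16 and LTBR. The order of the other cultures is not read for LTB, CXCL16 and LTBR. Their arrays there were under 40, except that of LTBR in the live sample of differentiation 2. Differentiation 2 lay below differentiation 1 on both arrays for 32.5% of all genes tested. CD68 had processed minus live differences of 0.51, 0.34 and 1.17 in pairs 1 to 3 (limma unadjusted p = 0.00402, adjusted p = 0.389). These genes were picked out after their values had been seen.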
